A study of Arabidopsis thaliana with 10 samples.

Results

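The transcriptome of leaves carrying an NTL12-SRDX transgene was set against that of wild-type leaves. The 4 libraries compared, of 10 in the series, were chosen by genotype label: 2 from wild type Col-0 and 2 from 35S:NTL12-SRDX in the pnet2_ab mutant. All came from leaves of soil-grown, untreated Arabidopsis thaliana plants, 4 weeks old. The remaining 6 libraries, 2 each of pnet2_ab and of the lines with 35S:NTL6-SRDX and 35S:NTL9-SRDX in that mutant, entered the fit so that all groups shared an estimate of the spread. The transgenic line thus differed from wild type in 2 ways at once, by the pnet2_ab mutations and by the transgene, which the 35S promoter drives in most tissues. A difference from wild type in this line can therefore belong to either, and pnet2_ab, the mutant without a transgene, is given beside the lists and most of the genes described. The genotype label of the second NTL12-SRDX library reads NTL2 where its title reads NTL12, and it was kept by its title. The series text speaks of triplicates, and 2 libraries per genotype were analysed here. No label states that the 2 libraries came from different plants, so each p-value is measured against a spread that may be only technical.

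PNET2 proteins sit in the inner nuclear membrane of plants, where they contact chromatin and the lamina. NTL proteins are NAC transcription factors held at a membrane by a tail; release from the membrane lets them enter the nucleus and switch on stress genes. SRDX is a short repression domain, and fusing it to a transcription factor turns an activator into a repressor of its targets. The labels do not say which genes of the family are PNET2 A and B, and no source used here pairs the name NTL12 with a locus.

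Of 20334 genes tested, 6205 (30.5%) differed between the NTL12-SRDX line and wild type at an adjusted p under 0.05 by edgeR's quasi-likelihood test. Of these, 3024 were higher in the line (14.9% of tested genes) and 3181 lower (15.6%). Changes of at least 2-fold were more often rises, with 998 genes higher (4.91%) and 302 lower (1.49%). Without the second wild-type library the count of higher genes was 1967. The median log2 fold change over all tested genes was 0.027 and the median of its size 0.31. The same test called 6916 genes (34%) between pnet2_ab and wild type and 1413 (6.95%) between the NTL12-SRDX line and pnet2_ab. For pnet2_ab against wild type 17.2% were higher and 16.8% lower, and for the line against pnet2_ab 3.11% and 3.84%. These 3 comparisons share libraries, so the values are set side by side and no overlap is drawn from them.

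Library totals were 22638465 and 24735380 counts in wild type and 25934548 and 23542260 in the NTL12-SRDX line. Log CPM (each count scaled to a common library size, with TMM factors) correlated at 0.979 between the wild-type libraries, at 0.982 between the NTL12-SRDX libraries and at 0.953 to 0.956 between the 2 groups. Leaf identity was visible in all 4 libraries, since the Rubisco gene RBCS1A stood at 12100 CPM or more. In the marker list for leaf mesophyll 8 of 9 members were lower in the line, beside 15.6% of all tested genes. The summed level of this list was 93000 and 87000 CPM in wild type against 63900 and 61500 CPM in the line. In bulk leaf RNA, fewer cells of a type and less RNA per cell cannot be told apart. Marker lists of other cell types had summed levels of 126 and 136 against 148 and 156 CPM for guard cells, 1450 and 1540 against 1450 and 1490 for epidermis, 155 and 161 against 157 and 174 for trichomes, and 840 and 820 against 788 and 767 for vasculature. Their part in the results below was not tested. The tested root markers summed to 155 and 224 against 112 and 121 CPM. The 10 tested floral organ markers summed to 35.1 and 29.7 against 30.1 and 32.8 CPM, with 2 higher and 1 lower in the line. AP1 of the floral organ list, which marks floral meristems, was at 0 in all 4 libraries and does not stand for the whole list.

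The 250 bases upstream of the start are shown for 4 genes that rose in the line, because the results below return to immune and cold-regulated genes. WRKY33 (chr2:16107985-16108234, plus strand) and WRKY53 (chr4:12393983-12394232, minus strand) encode WRKY transcription factors of immunity and of leaf senescence. Capitals mark the W-box, TTGACC or TTGACT on either strand, to which WRKY proteins bind. ERD7 (chr2:7757930-7758179, minus strand) and RD29A (chr5:21240467-21240716, plus strand) respond to drought and cold, and capitals mark CCGAC, the core of the dehydration and cold element. Sequences and gene starts are from RefSeq, build TAIR10.1, and run 5′ to 3′ towards the gene.
WRKY33: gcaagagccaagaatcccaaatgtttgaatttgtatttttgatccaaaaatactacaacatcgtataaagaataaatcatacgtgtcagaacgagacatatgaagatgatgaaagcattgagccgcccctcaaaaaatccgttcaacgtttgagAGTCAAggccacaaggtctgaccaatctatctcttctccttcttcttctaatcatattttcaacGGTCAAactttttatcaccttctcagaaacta
WRKY53: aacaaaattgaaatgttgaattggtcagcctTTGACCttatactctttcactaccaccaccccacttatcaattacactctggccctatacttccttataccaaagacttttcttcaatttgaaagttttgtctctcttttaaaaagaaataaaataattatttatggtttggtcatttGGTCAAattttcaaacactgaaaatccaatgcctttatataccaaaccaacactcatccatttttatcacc
ERD7: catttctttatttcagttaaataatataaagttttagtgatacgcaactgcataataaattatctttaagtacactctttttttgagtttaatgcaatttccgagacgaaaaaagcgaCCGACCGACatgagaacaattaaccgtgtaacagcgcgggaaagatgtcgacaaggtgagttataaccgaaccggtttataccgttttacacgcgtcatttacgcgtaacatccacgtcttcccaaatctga
RD29A: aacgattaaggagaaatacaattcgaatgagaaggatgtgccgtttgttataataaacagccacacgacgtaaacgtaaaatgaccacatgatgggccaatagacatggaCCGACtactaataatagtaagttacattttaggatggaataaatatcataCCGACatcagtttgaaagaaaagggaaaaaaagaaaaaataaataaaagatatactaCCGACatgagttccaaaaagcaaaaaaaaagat

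WRKY33 and WRKY53 each held 2 W-boxes, RD29A held 3 CCGAC matches, and ERD7 held 2 that overlap by 1 base. Over all promoters of this length, a W-box was found in 39.6% of the 996 genes higher by at least 2-fold that had a window, in 25.8% of the 302 lower ones, and in 27.9% of 20220 tested genes. CCGAC was found in 12.2%, 11.9% and 12.9% of the same groups. The G-box CACGTG was found in 8.33%, 9.93% and 7.2%, and the evening element AAAATATCT in 3.51%, 2.65% and 2.53%. The mitochondrial dysfunction motif, which some membrane-bound NAC factors bind, was found in 2.11% (21 genes), 0.662% (2 genes) and 0.905%. These shares describe letters in the windows, on both strands, and a match is not a binding site.

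The largest rises were ranked among genes with a symbol, no overlap between the groups and a mean of at least 5 CPM over the 4 libraries compared. They included genes for lipid transfer proteins, wall enzymes and stress regulators. Genes near 0 in wild type, such as LTP4 and XTH19, reached that mean only through the line. The ranking is therefore a description and not a test of these kinds of gene. LTP3, whose product carries lipids (chromosome 5, 23928971 to 23929745, TAIR10), stood at 0.75 and 1.03 CPM in wild type against 49.7 and 55.7 CPM in the line. The log2 fold change ± SE was 5.87 ± 0.16 (adjusted p = 8.2e-17), and the level of LTP3 was higher still in pnet2_ab, at 124 and 135 CPM. LTP2 (chromosome 2, 16128378 to 16129158) stood at 18.9 and 21.0 CPM in wild type, 430 and 398 CPM in the line and 745 and 685 CPM in pnet2_ab. It rose by 4.37 ± 0.09 against wild type (adjusted p = 1.6e-18) and was lower than in pnet2_ab by a log2 difference of -0.79 (adjusted p = 1.4e-06). In both genes the line lay between wild type and the mutant. LTP4, next to LTP3 on chromosome 5 and close to it in sequence, stood at 0 and 0.312 CPM in wild type against 18.8 and 15.0 CPM in the line, and reads of the pair may be split between them. XTH19, a xyloglucan endotransglucosylase gene that loosens cell walls, stood at 0.25 and 0 CPM in wild type against 11.2 and 13.3 CPM in the line. For these 2 genes, with a wild-type library at 0, the fitted log2 change of 6.64 rests on few wild-type counts. It was 5.73 for LTP4 without the first wild-type library and 11.73 without the second, and 11.27 and 5.57 for XTH19.

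WRKY40, encoding a WRKY factor that limits immune responses (chromosome 1, 30383691 to 30385499), stood at 1.5 and 1.16 CPM in wild type against 26.8 and 26.6 CPM in the line. The 2 pnet2_ab libraries lay between, at 4.27 and 8.07 CPM. WRKY40 rose by 4.33 ± 0.28 against wild type (adjusted p = 2.2e-10) and by 2.12 against pnet2_ab (adjusted p = 5.3e-06). WRKY53 stood at 1.7 and 2.1 CPM in wild type against 21.0 and 20.5 CPM in the line, a rise of 3.44 ± 0.21 (adjusted p = 8.6e-11), with 16.4 and 19.2 CPM in pnet2_ab. PSK2, the precursor of a growth peptide, rose by 4.1 ± 0.31, and ATPMEPCRB, a pectin methylesterase gene, by 3.36 ± 0.18. In pnet2_ab their changes against wild type were 3.67 and 4.44. DIC2, a mitochondrial dicarboxylate carrier gene (chromosome 4, 12686459 to 12687650), stood at 4.65 and 3.88 CPM in wild type, 42.4 and 39.7 CPM in the line and 15.3 and 19.2 CPM in pnet2_ab. Its rise of 3.27 ± 0.19 had an adjusted p of 2.8e-11.

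Among the falls, MES18, of a methylesterase family (chromosome 5, 23574992 to 23576084), stood at 30.6 and 25.8 CPM in wild type against 0.683 and 0.451 CPM in the line. It fell by 5.62 ± 0.41 on the log2 scale (adjusted p = 9.5e-10), and pnet2_ab had 0.587 and 2.65 CPM. The alpha carbonic anhydrase gene ACA2 fell by 2.73 ± 0.39 and PME61, a pectin methylesterase gene, by 1.84 ± 0.17, beside log2 changes of -3.05 and -1.56 in pnet2_ab. XTH31, another xyloglucan enzyme gene (chromosome 3, 16446975 to 16448764), stood at 113 and 122 CPM in wild type, 31.4 and 31.1 CPM in the line and 32.4 and 28.9 CPM in pnet2_ab. Its fall was 1.91 ± 0.09 (adjusted p = 1.6e-12), and lack of overlap with wild type was part of the rule for these falls. LpxC3, whose near-identical copies make its counts uncertain, had 16.7 and 14.5 against 2.81 and 4.47 CPM, and lost its call without the first NTL12-SRDX library (-1.8, adjusted p = 0.11).

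**Figure D1:**
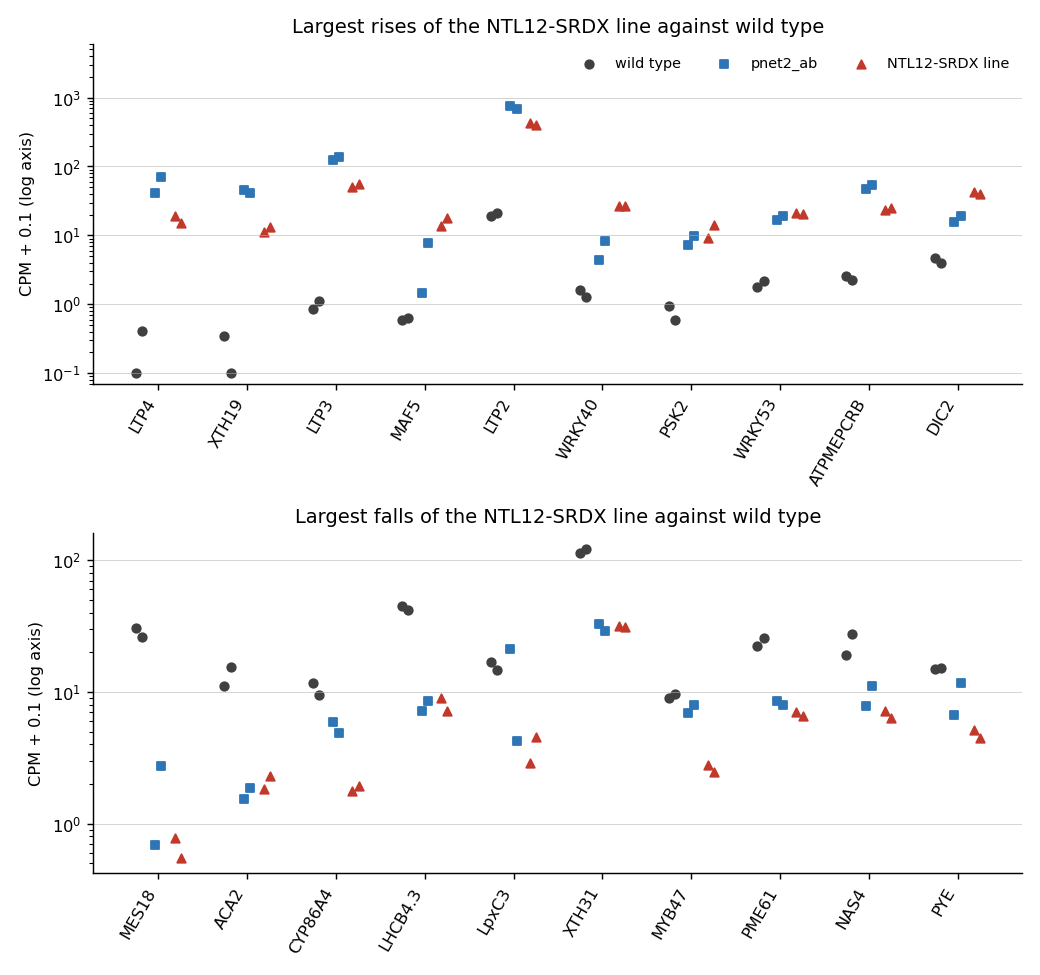
CPM + 0.1 on a log axis for the 10 largest rises (top) and 10 largest falls (bottom) of the NTL12-SRDX line against wild type, each point a library, for wild type, pnet2_ab and the NTL12-SRDX line. LTP3 and LTP2 of the line lie between wild type and pnet2_ab, whereas WRKY40 and DIC2 lie above both and CYP86A4 and MYB47 below both.

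Some genes stood at the level of the mutant. They were picked because the 95% interval of the difference between the line and pnet2_ab lay within 0.5 log2 of 0, so that closeness is a description and not a test. Among the rises was SRC2, a C2-domain protein gene, with 61.2 and 66.7 CPM in wild type, 343 and 314 CPM in the line and 293 and 299 CPM in pnet2_ab. It rose by 2.36 ± 0.08 against wild type (adjusted p = 1.8e-15), with an interval against pnet2_ab of 0.0 to 0.3. ERD7 (chromosome 2, 7755605 to 7757852) stood at 76.8 and 77.3 CPM in wild type against 361 and 338 CPM in the line, and rose by 2.18 ± 0.08 (interval against pnet2_ab -0.07 to 0.23). WRKY26, PMT6, a polyol transporter gene, XTH22, a touch-induced wall enzyme gene, and AtIPCS1, which makes inositolphosphorylceramide, rose by 2.61, 2.17, 2.0 and 1.95. Among the falls, FIB, a fibrillin of chloroplast lipid droplets, had 211 CPM in both wild-type libraries and 73.9 and 68.0 CPM in the line. It fell by 1.57 ± 0.08 (interval against pnet2_ab -0.29 to 0.03). The fatty acid desaturase gene FADA fell by 1.57 ± 0.14, and ARR4, a cytokinin response regulator gene, fell by 1.42 ± 0.08, from 170 and 174 to 60.9 and 67.8 CPM. The largest fall of this kind was that of LHCB4.3, described with the photosystem genes.

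Other genes lay beyond both wild type and pnet2_ab, by a rule that used the calls against each and did not look at the other transgenic lines. STZ, a zinc-finger repressor of stress responses (chromosome 1, 9648141 to 9649073), stood at 4.5 and 3.66 CPM in wild type, 19.1 and 26.8 CPM in pnet2_ab against 40.5 and 36.9 CPM in the line. It rose by 3.25 ± 0.19 against wild type, with an adjusted p of 6.1e-11. BAM5, a beta-amylase gene, stood at 1.3 and 1.34 CPM in wild type, 1.47 and 4.89 CPM in pnet2_ab against 12.7 and 11.6 CPM in the line, a rise of 3.2 ± 0.39 (adjusted p = 1.3e-06). BAM5 was also high in the other transgenic lines, with 9.87 and 10.5 CPM for NTL6-SRDX and 9.0 and 5.26 CPM for NTL9-SRDX, whereas STZ stood there at 4.12 and 3.95 and at 7.94 and 5.88 CPM. CYP86A4, which hydroxylates fatty acids of the cuticle (chromosome 1, 218994 to 221286), stood at 11.6 and 9.32 CPM in wild type, 5.77 and 4.81 CPM in pnet2_ab against 1.67 and 1.84 CPM in the line. It fell by 2.57 ± 0.32 (adjusted p = 2.2e-06), and it was similarly low in NTL6-SRDX, at 1.47 and 1.46 CPM, and in NTL9-SRDX, at 0.976 and 2.18 CPM. MYB47, a MYB transcription factor gene, stood at 8.85 and 9.59 CPM in wild type, 6.79 and 7.91 CPM in pnet2_ab against 2.69 and 2.38 CPM in the line, and fell by 1.86 ± 0.3, with 3.05 and 2.88 CPM in NTL6-SRDX and 2.72 and 6.13 CPM in NTL9-SRDX. The chloroplast chaperone gene cpHsc70-2 fell by 1.27 ± 0.07, from 504 and 532 to 214 CPM in both libraries of the line, and pnet2_ab had 269 and 244 CPM. The acid phosphatase gene PAP29 fell by 1.38 ± 0.22. JAL33, a lectin gene, stood at 7.0 and 12.5 CPM in wild type, 13.6 and 18.4 CPM in pnet2_ab against 4.28 and 3.69 CPM in the line. Its fall of 1.29 rests in part on the second wild-type library, without which the log2 change was -0.82. JAL33 was similarly low in NTL6-SRDX, at 4.84 and 4.14 CPM, and had 5.52 and 9.54 CPM in NTL9-SRDX.

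The photosynthesis lists had the largest shares of lower genes among the lists plotted by share. Of 46 photosystem and light-harvesting genes 39 were lower than in wild type, 1 was higher and 6 did not pass the test, with a median log2 fold change of -0.33. Of 26 genes in the Rubisco and Calvin cycle list 25 were lower and none higher, with a median of -0.81. This list includes GLDP1, GLDP2, SHM1, GOX1 and GOX2, which act in photorespiration. In pnet2_ab against wild type 45 and 26 were lower, with medians of -0.61 and -0.93. Against pnet2_ab, the line had 26 of the 46 photosystem genes higher and 4 of the 26 in the Calvin cycle list. None was lower in either list. Over all tested genes 15.6% were lower than in wild type, and 3.11% were higher than in pnet2_ab. The summed level of the photosystem list was 206000 and 193000 CPM in wild type, 168000 and 159000 CPM in the line, and 135000 and 139000 CPM in pnet2_ab. For the Calvin cycle list it was 79300 and 75000, 44500 and 43000, and 38500 and 40000 CPM. The mesophyll marker list, which shares members such as LHCB1.3 with these lists, was lower as well, and its part in these falls was not tested.

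LHCB4.3, a minor antenna gene (chromosome 2, 16745653 to 16747400), stood at 44.8 and 41.7 CPM in wild type, 8.95 and 7.05 CPM in the line and 7.01 and 8.36 CPM in pnet2_ab. It fell by 2.43 ± 0.16 (adjusted p = 1.7e-10). Subunit genes of the chloroplast ATP synthase fell as well, ATPD by 0.88 ± 0.06 and ATPC1 by 0.81 ± 0.06. PSBS, which dissipates excess light energy, stood at 1520 and 1470 CPM in wild type against 827 and 795 CPM in the line, a fall of 0.88 ± 0.07 (adjusted p = 1.9e-09). The antenna gene LHCB1.4 was the member that rose, by 0.52 with an adjusted p of 5.6e-05, from 6670 and 5410 to 9190 and 8130 CPM. LHCB1 genes are close copies of each other, so their single values are uncertain. LHCB1.3, LHCB2.2, PSAD-2, LHCB2.3 and LHCB4.2 were among the genes that did not pass, with log2 differences from -0.13 to 0.14. They and LHCB1.4 were named after their values were seen.

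RBCS1A (chromosome 1, 25048158 to 25049424), a small subunit gene of Rubisco, stood at 23000 and 22100 CPM in wild type against 12500 and 12100 CPM in the line. It fell by 0.87 ± 0.06 (adjusted p = 2.8e-10), and pnet2_ab had 11100 and 12100 CPM. EMB3119, a ribose 5-phosphate isomerase gene, stood at 437 and 417 CPM in wild type against 163 and 152 CPM in the line, a fall of 1.44 ± 0.08 (adjusted p = 1.3e-11), with 176 and 177 CPM in pnet2_ab. PGK1, of phosphoglycerate kinase, fell by 1.0 ± 0.06 and GAPA-2, of glyceraldehyde 3-phosphate dehydrogenase, by 1.04 ± 0.07. CP12-1, a small regulator of these enzymes, was the Calvin cycle gene that did not pass, with 740 and 575 CPM in wild type against 691 and 577 CPM in the line. It stood at 408 CPM in both pnet2_ab libraries.

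**Figure D2:**
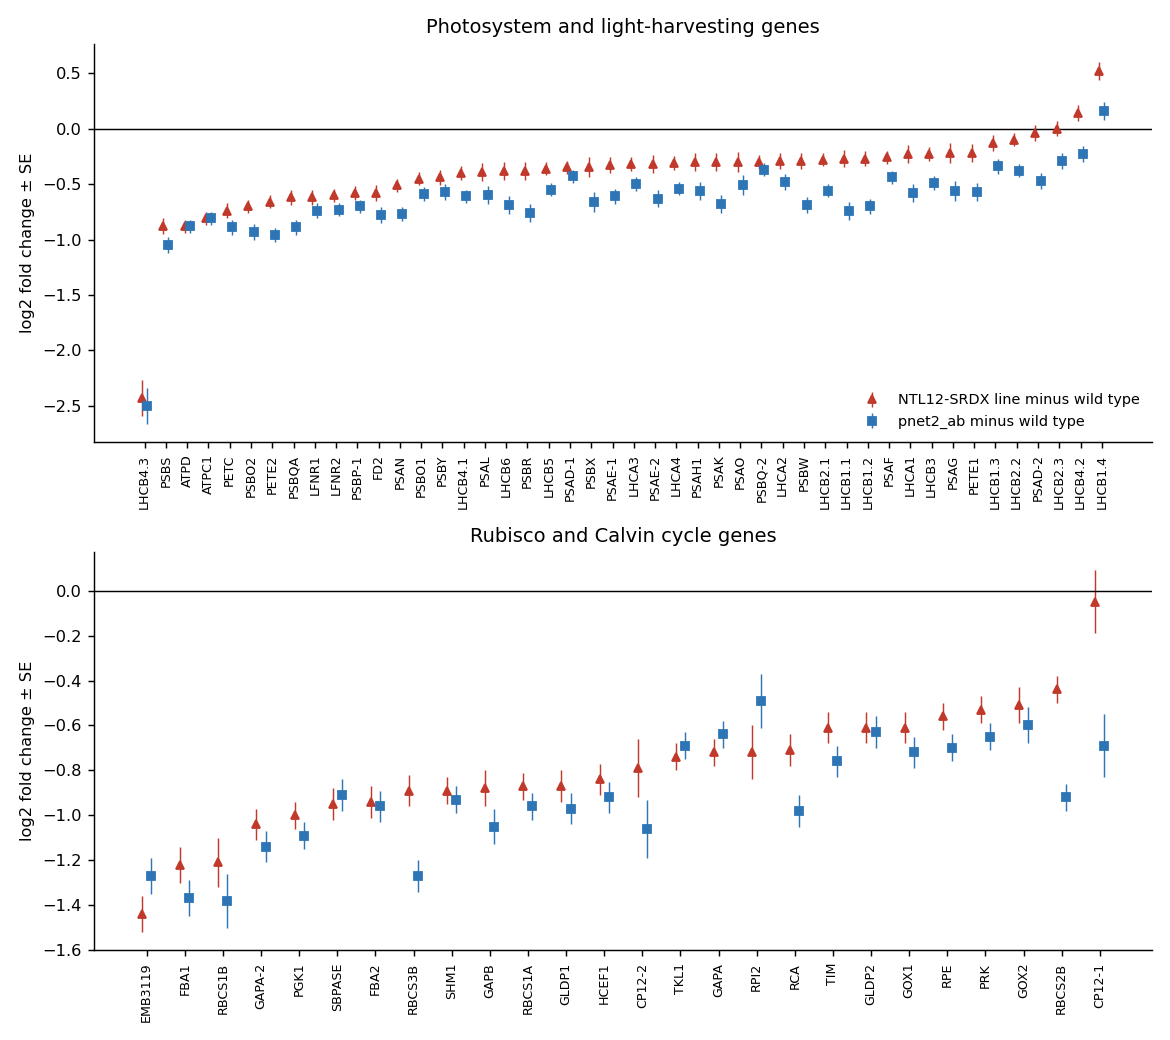
Log2 fold change ± SE against wild type for the NTL12-SRDX line (triangles) and pnet2_ab (squares), with genes ordered by the line. The top holds 46 photosystem and light-harvesting genes, and the bottom the 26 genes of the Rubisco and Calvin cycle list. Both comparisons share the wild-type libraries; LHCB4.3 lies far below the other photosystem genes and LHCB1.4 is the gene of that list called higher in the line.

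Of 25 genes of leaf senescence and chlorophyll breakdown 14 were higher in the line, 3 were lower and 8 did not pass the test, with a median of 0.8, while 18 were higher in pnet2_ab with a median of 1.24. NAP, a NAC factor that promotes senescence (AT1G69490), stood at 3.5 and 3.21 CPM in wild type, 25.03 and 26.07 CPM in the line and 12.3 and 10.1 CPM in pnet2_ab. It rose by 2.93 ± 0.18 against wild type (adjusted p = 1.1e-10) and by 1.19 against pnet2_ab (adjusted p = 5.1e-05). SAG14, a blue copper protein gene, stood at 6.4 and 4.64 CPM in wild type, 35.0 and 37.7 CPM in the line and 60.2 and 56.1 CPM in pnet2_ab, a rise of 2.72 ± 0.15 against wild type. SEN4 rose by 1.47 ± 0.12. SAG13 stood at 0.1 and 0.758 CPM in wild type against 4.85 and 2.95 CPM in the line, against 16.4 and 86.9 CPM in pnet2_ab; its rise of 3.12 ± 0.78 ranged from 2.35 to 5.21 when 1 library was left out and lost its call without the first wild-type library. SAG12, a protease gene of late senescence, was at 0 in all 4 libraries compared, and 1 of the 2 pnet2_ab libraries had 6.82 CPM. SAG12 and CP12-1 were named after their values were seen.

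Of 36 genes of pattern-triggered immunity, the response to microbial surface molecules, 18 were higher and 1 lower (none lower without the second wild-type library), with a median of 0.64. In pnet2_ab 24 were higher and none lower. WRKY33 (AT2G38470) stood at 17.9 and 14.4 CPM in wild type, 92.3 and 95.3 CPM in the line and 34.4 and 46.6 CPM in pnet2_ab. It rose by 2.54 ± 0.13 against wild type (adjusted p = 1e-11) and by 1.21 against pnet2_ab (adjusted p = 2.6e-06), and its promoter, shown above, holds 2 W-boxes. CPK28, a calcium-dependent kinase gene, rose by 1.28 ± 0.12, and RBOHF, of the oxidative burst, by 1.09 ± 0.12. Of 22 genes in the list of salicylic acid synthesis and regulators 4 were higher and 1 lower, with a median of 0.12. The share higher was near the 14.9% over all tested genes, and in pnet2_ab 9 of the 22 were higher. The number lower was 0 to 2 when 1 library was left out (0 without the first wild-type or first NTL12-SRDX library, 2 without either second one). CBP60G, a transcription factor gene of this pathway, stood at 8.95 and 6.47 CPM in wild type against 36.1 and 32.3 CPM in the line, and rose by 2.15 ± 0.17 (adjusted p = 4.9e-09). ICS1, the isochorismate synthase gene, had 13.6 and 11.5 against 12.3 and 9.18 CPM (-0.22, adjusted p = 0.37). PAD4 and EDS1, regulators upstream of salicylic acid, had -0.22 (adjusted p = 0.34) and -0.21 (adjusted p = 0.39). The list of NLR genes, which encode intracellular immune receptors, had 8 of 20 higher and 1 lower. ADR1-L2 was at 0.97 ± 0.13, ADR1-L1 at 0.76 ± 0.1 and RPP4 at 0.64 ± 0.07. The lower member was TN10, which fell by 0.6 ± 0.1. Its deposited description names a Toll/interleukin-1 receptor-like protein with only a TIR domain, so it may not be an NLR receptor. Without the first NTL12-SRDX library 2 genes of this list were lower.

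Of 22 salicylic acid response genes 7 were higher and 1 lower in the line, with a median of 0.73, whereas pnet2_ab had 16 higher and a median of 2.39 against wild type. Without the filter on low counts the number higher in the line was 12, and without the second library of either group none was lower. Against pnet2_ab 11 of the 22 were lower in the line and none higher. Over all tested genes 14.9% were higher and 15.6% lower than in wild type, and 3.84% were lower than in pnet2_ab. PR1, the classic marker of salicylic acid (AT2G14610), stood at 1.05 and 2.45 CPM in wild type against 2.84 and 2.25 CPM in the line, so that the groups overlapped (0.52 ± 1.25, adjusted p = 0.8). In pnet2_ab it had 2.81 and 163 CPM, so that its 2 libraries differed widely, and PR2 and PR5 also differed between them. PR2 stood at 4.75 and 3.83 CPM in wild type against 9.48 and 10.5 CPM in the line (1.22 ± 0.51, adjusted p = 0.074), and PR5 had 6.0 and 6.24 against 13.7 and 13.2 CPM, a rise of 1.13 ± 0.28 (adjusted p = 0.0037). The 2 pnet2_ab libraries had 14.6 and 79.0 CPM of PR2 and 15.2 and 38.7 CPM of PR5. The spread of each gene was estimated over all 10 libraries, so this disagreement enters the SE and adjusted p given here. A missing call for such genes is therefore no measure of the spread within wild type and the line. How far this lowered the count of 7 was not tested. CRK13, a cysteine-rich receptor kinase gene, stood at 1.35 and 1.34 CPM in wild type, 6.94 and 6.93 CPM in the line and 24.96 and 22.7 CPM in pnet2_ab. It rose by 2.36 ± 0.23 against wild type (adjusted p = 8e-08) and was lower than in pnet2_ab by a log2 difference of -1.78. WRKY46, WRKY18 and AZI1, of systemic resistance, rose by 2.55 ± 0.32, 1.73 ± 0.19 and 1.74 ± 0.21 against wild type.

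Jasmonate genes, which act in wound and necrotroph responses, had 11 of 29 higher and 3 lower in the line, with a median of 0.3, and 9 higher and 7 lower in pnet2_ab, with a median of -0.09. Against pnet2_ab 9 were higher and 1 lower in the line. The shares of jasmonate genes against wild type were 37.9% higher and 10.3% lower, beside 14.9% and 15.6% over all tested genes. Against pnet2_ab 3.11% of all tested genes were higher and 3.84% lower. Without the first NTL12-SRDX library 1 of the 29 was lower than in wild type. LOX4, a lipoxygenase gene of jasmonate synthesis (AT1G72520), stood at 3.8 and 3.75 CPM in wild type, 14.3 and 17.0 CPM in the line and 3.49 and 6.81 CPM in pnet2_ab. It rose by 2.05 ± 0.26 against wild type (adjusted p = 2.9e-06). The synthesis genes AOC1 and OPR3 rose by 1.36 ± 0.11 and 0.81 ± 0.12, and JAZ1, a repressor of the pathway that jasmonate itself induces, by 1.9 ± 0.17, from 14.1 and 9.9 to 44.7 and 44.5 CPM. Of 18 genes of ethylene and jasmonate defence 13 were higher and none lower, with a median of 1.5, and 12 were higher in pnet2_ab. ERF6 and ERF104, ethylene response factor genes, rose by 2.55 ± 0.28 and 2.22 ± 0.2, and ERF4, a repressor of that family, by 1.34 ± 0.14. EBF2, which limits ethylene signalling, rose by 0.97 ± 0.08, from 63.3 and 55.0 to 119 and 112 CPM. The defensin gene PDF1.2a stood at 0.9 and 0.58 CPM in wild type, 2.05 and 2.99 CPM in the line and 0.652 and 1.22 CPM in pnet2_ab, a rise of 1.77 ± 0.38 (adjusted p = 0.00095).

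**Figure D3:**
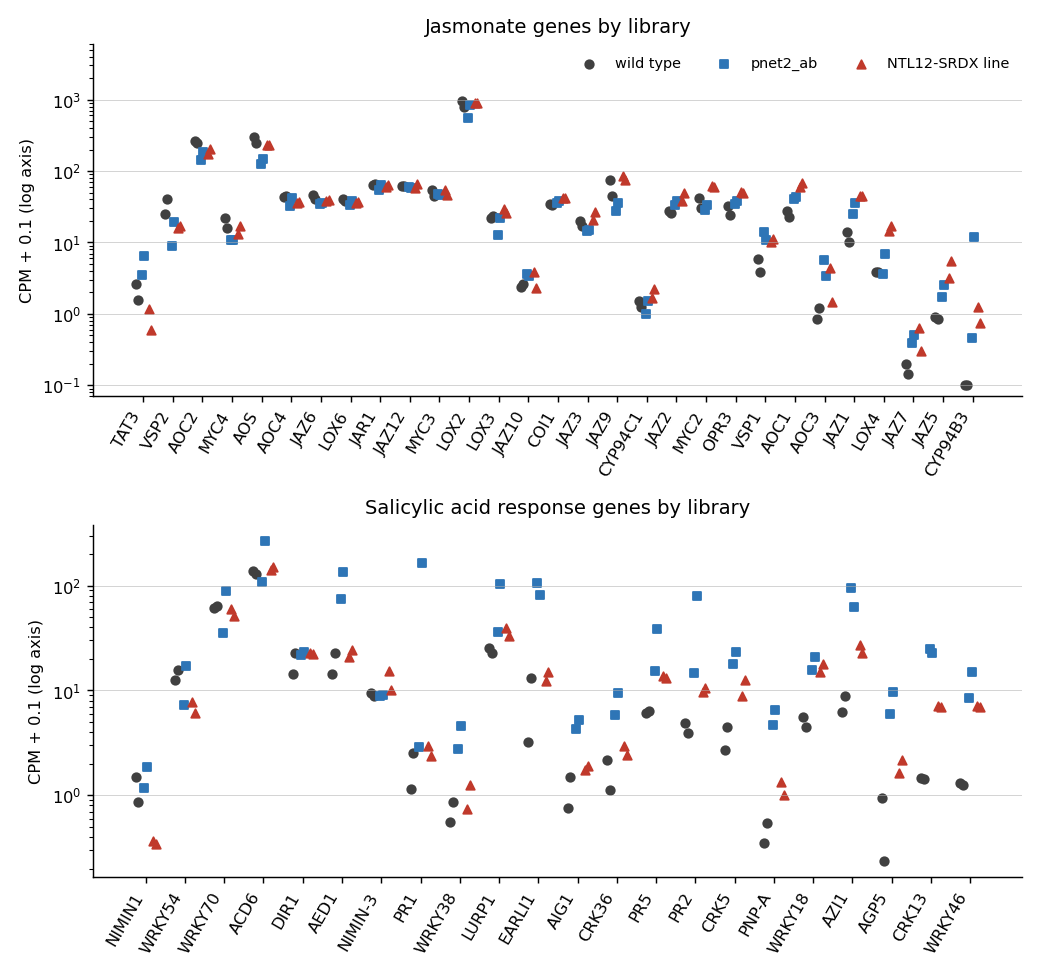
CPM + 0.1 on a log axis of the tested jasmonate genes (top, 29) and salicylic acid response genes (bottom, 22), each point a library of wild type, pnet2_ab or the NTL12-SRDX line, ordered by the change of the line against wild type. LOX4 and JAZ1 of the line lie above both other genotypes, and PR1 of the line overlaps wild type while 1 pnet2_ab library reaches 163 CPM.

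Of 22 cold-regulated genes 13 were higher in the line, 2 were lower and 7 did not pass the test, with a median of 0.84, and 1 was lower without the second wild-type library or either NTL12-SRDX library. In pnet2_ab 16 were higher and 1 lower, with a median of 0.92. The cold-regulated shares in the line were 59.1% higher and 9.09% lower, beside 14.9% and 15.6% over all tested genes. RD29A (AT5G52310) stood at 209 and 230 CPM in wild type, 434 and 442 CPM in the line and 675 and 745 CPM in pnet2_ab. It rose by 1.0 ± 0.07 against wild type (adjusted p = 7.1e-10), and was lower than in pnet2_ab by -0.7 on the log2 scale (adjusted p = 1.9e-06). ERD10 and COR47, dehydrin genes, rose by 1.7 ± 0.07 and 1.0 ± 0.07 against wild type and were lower than in pnet2_ab by -0.26 (adjusted p = 0.016) and -0.56 (adjusted p = 1.9e-05). Of 21 abscisic acid genes 13 were higher, none was lower and 8 did not pass, with a median of 0.62, and 14 were higher in pnet2_ab. RD26, a NAC factor gene induced by the hormone, stood at 12.2 and 11.9 CPM in wild type against 43.7 and 37.0 CPM in the line, and rose by 1.74 ± 0.14. NCED3, of abscisic acid synthesis, rose by 1.19 ± 0.16, from 11.6 and 10.5 to 23.7 and 26.7 CPM, and LEA14 by 1.13 ± 0.08. CYP707A3, which breaks the hormone down, stood at 0.9 and 3.03 CPM in wild type against 12.3 and 18.6 CPM in the line, and its rise of 2.95 ± 0.33 ranged from 2.34 to 4.08 when 1 library was left out.

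Genes of mitochondrial retrograde signalling, the list nearest to known targets of membrane-bound NAC factors, had 8 of 18 higher and none lower, with a median of 0.97, and 13 higher in pnet2_ab, with a median of 1.46. Besides DIC2, OM66, an outer membrane protein gene, stood at 5.0 and 5.93 CPM in wild type, 14.8 and 15.9 CPM in the line and 19.1 and 22.7 CPM in pnet2_ab. It rose by 1.49 ± 0.17 against wild type (adjusted p = 7.9e-07). AOX1A, the alternative oxidase gene and the usual marker of this response, had 36.0 and 39.3 against 43.2 and 38.9 CPM, so that the groups overlapped (0.12 ± 0.12, adjusted p = 0.47). The list of NTL genes had 7 of 16 higher and none lower, with a median of 0.57, and 8 higher in pnet2_ab. Whether each member is held at a membrane was not checked. The shares higher were 44.4% for the retrograde list and 43.8% for the NTL list. Over all tested genes 14.9% were higher and 15.6% lower. NAC103 is also in the unfolded protein response list, and its deposited description names NAC082. NAC091 stood at 18.4 and 17.5 CPM in wild type against 37.7 and 37.6 CPM in the line, a rise of 1.07 ± 0.12 (adjusted p = 3.4e-07). NAC062, NAC014, NAC053 and NAC103 rose by 0.82 ± 0.13, 0.83 ± 0.15, 0.99 ± 0.19 and 1.93 ± 0.31, while NAC013 lost its call without the first wild-type library (0.57, adjusted p = 0.073) and NAC016 without each of the 3 other libraries in turn (1.19 to 2.37). NAC017, the regulator of AOX1A, had 47.5 and 46.0 against 48.6 and 53.3 CPM (0.13, adjusted p = 0.33). With no locus for NTL12, the transgene was not checked in these counts.

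The 3 tested PNET2 family genes went in both directions. AT1G28760 (chromosome 1, 10103158 to 10104588) stood at 5.75 and 3.75 CPM in wild type, 11.9 and 15.4 CPM in the line and 19.0 and 16.7 CPM in pnet2_ab. The rise against wild type was 1.53 ± 0.2 (adjusted p = 3.1e-06). AT5G67610 stood at 15.5 and 17.7 CPM in wild type against 11.98 and 10.66 CPM in the line, a fall of 0.56 ± 0.17 (adjusted p = 0.013) that lost its call without the second wild-type or the second NTL12-SRDX library. AT3G49840 had 6.4 and 9.19 against 6.33 and 6.03 CPM (-0.34, adjusted p = 0.35). In pnet2_ab AT5G67610 had 9.3 and 8.07 CPM and AT3G49840 had 3.82 and 5.46 CPM. Both were called lower there than in wild type, with log2 differences of -0.94 and -0.76. The list median was -0.34 and the mean 0.21.

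Of 22 tested iron genes 5 were higher, 8 were lower and 9 did not pass, with a median of -0.12. In pnet2_ab 6 were higher and 4 lower, with a median of 0.26. The shares of iron genes in the line were 22.7% higher and 36.4% lower, beside 14.9% and 15.6% over all tested genes. Genes of nicotianamine synthesis went in both directions. NAS3, which makes the iron chelator nicotianamine (chromosome 1, 2984881 to 2986130), stood at 2.6 and 2.85 CPM in wild type, 26.7 and 25.7 CPM in the line and 17.55 and 17.24 CPM in pnet2_ab. The rise against wild type was 3.26 ± 0.16 (adjusted p = 4.5e-12). The ferritin gene FER1 had 13.1 and 11.4 against 35.8 and 34.1 CPM, a rise of 1.51 ± 0.13 (adjusted p = 7.2e-09), with 28.7 and 25.5 CPM in pnet2_ab. BTS, an iron-binding ubiquitin ligase gene, stood at 180 and 167 CPM in wild type against 83.4 and 73.1 CPM in the line, a fall of 1.15 ± 0.14 (adjusted p = 1.1e-06), and the pnet2_ab libraries had 90.3 and 148 CPM. PYE, a transcription factor gene of the deficiency response, had 14.8 and 15.2 against 5.01 and 4.39 CPM, and fell by 1.68 ± 0.22 (adjusted p = 4.1e-06), beside 6.56 and 11.6 CPM in pnet2_ab. NAS4, a further nicotianamine synthase gene, had 19.0 and 27.4 against 7.09 and 6.23 CPM, and fell by 1.8 ± 0.19 (adjusted p = 1.7e-07), beside 7.7 and 11.0 CPM in pnet2_ab. NAS3, PYE and NAS4 were picked by rules that required no overlap with wild type, so their lack of overlap is not a result. In NTL9-SRDX NAS3 had 24.7 and 22.7 CPM and PYE 3.91 and 4.93 CPM, near the levels of the line. In NTL6-SRDX NAS3 had 7.61 and 6.83 CPM and PYE 18.4 and 19.8 CPM.

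Other iron genes were named after their values were seen. BHLH038, BHLH039 and BHLH100 encode factors that turn on iron uptake. BHLH101, listed with them, did not pass the test, with a log2 difference of -0.95. BHLH038 stood at 3.55 and 1.34 CPM in wild type against 0.152 and 0.082 CPM in the line, BHLH039 had 2.3 and 0.535 against 0 and 0.041 CPM, and BHLH100 had 2.55 and 2.59 against 0.19 and 0 CPM. All 3 were lower with adjusted p of 0.00029, 0.0021 and 0.0026, but the call of BHLH100 was lost with DESeq2 (adjusted p = 0.2), and with so few counts in the line their fitted changes are not given. The 2 pnet2_ab libraries disagreed for these genes, with 0.326 and 2.08 CPM of BHLH038 and 0 and 2.89 CPM of BHLH100. OPT3, a transporter of iron in the phloem, fell by 0.63 from 205 and 191 to 132 and 124 CPM (adjusted p = 6.7e-06), and the ferritin gene FER4 rose by 0.69 (adjusted p = 5.6e-06).

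Several repressors of flowering were among the genes that rose. Of 23 tested genes of the floral transition 8 were higher and 1 lower, with a median of 0.24. The shares were 34.8% and 4.35%, beside 14.9% and 15.6% over all tested genes. In pnet2_ab 7 were higher and 1 lower. MAF5, a relative of FLC (chromosome 5, 25997504 to 26002465), stood at 0.5 and 0.535 CPM in wild type, 13.7 and 17.5 CPM in the line and 1.37 and 7.58 CPM in pnet2_ab. It rose by 4.89 ± 0.53 against wild type (adjusted p = 3e-07) and by 1.84 against pnet2_ab (adjusted p = 0.0037). MAF5 was also high in the other transgenic lines, with 20.3 CPM in both NTL6-SRDX libraries and 20.12 and 14.1 CPM in the NTL9-SRDX libraries. FLC, the central repressor set by cold winters (AT5G10140), stood at 0.6 and 0.58 CPM in wild type against 4.89 and 5.78 CPM in the line, and rose by 3.17 ± 0.39 (adjusted p = 1.7e-06), with 1.92 and 3.59 CPM in pnet2_ab. TEM1 and TEM2, which repress the florigen gene, rose by 1.47 ± 0.1 and 1.82 ± 0.1, the latter from 36.5 and 34.5 to 123 and 127 CPM. In pnet2_ab TEM1 had 85.1 and 87.9 CPM and TEM2 93.5 and 107 CPM. SPL4, which promotes flowering, rose as well, by 1.35 (adjusted p = 7.3e-06), and SOC1, an integrator of flowering signals, fell by 0.45 (adjusted p = 0.0017), from 47.5 and 47.4 to 33.2 and 36.5 CPM. SPL4 and SOC1 were named after their values were seen. The repressor SVP, also named after its value was seen, had a log2 difference of 0.07 (adjusted p = 0.53). Without the first NTL12-SRDX library 2 of the 23 genes were lower.

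**Figure D4:**
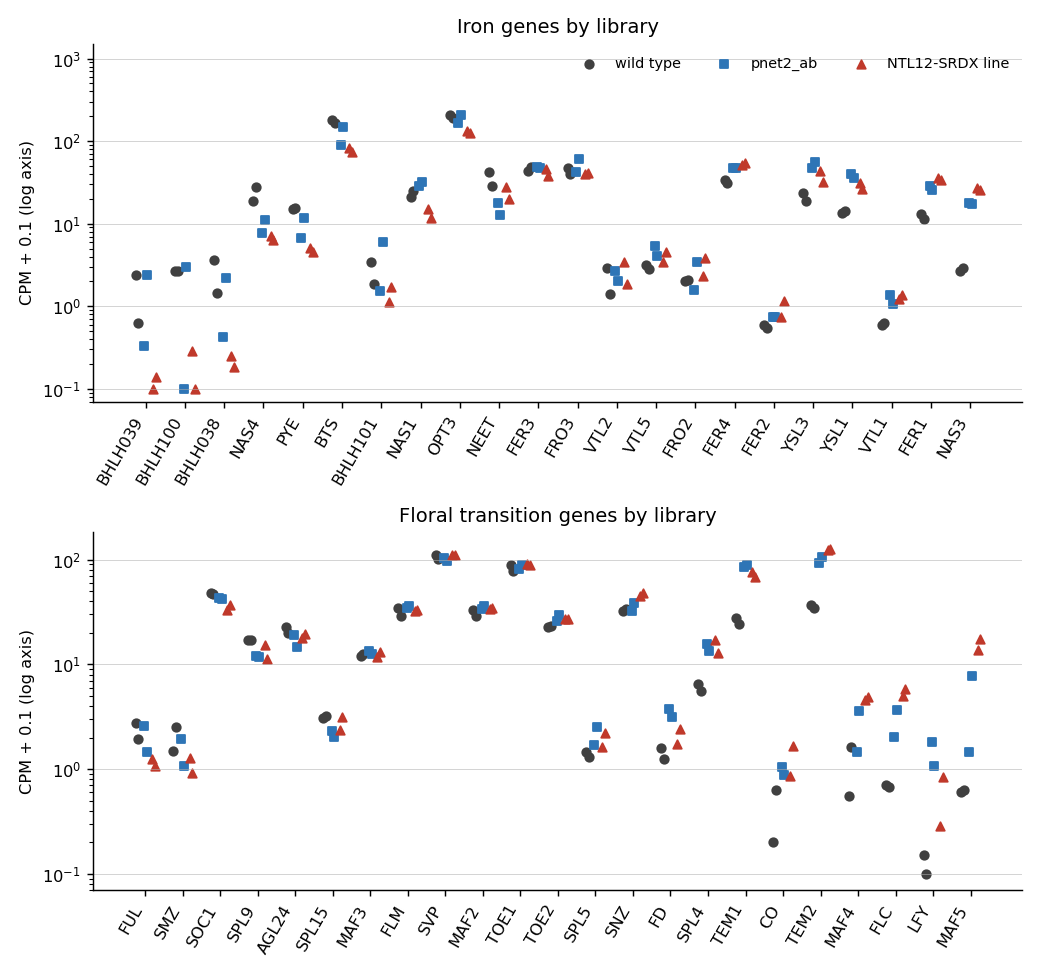
CPM + 0.1 on a log axis of the tested iron genes (top, 22) and floral transition genes (bottom, 23), each point a library of wild type, pnet2_ab or the NTL12-SRDX line, ordered by the change of the line against wild type. In the line BHLH038, BTS and PYE lie below wild type and FER1 and NAS3 above it, and MAF5 and FLC lie above both wild-type libraries.

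Of 22 sugar and nitrogen genes 9 were higher and 6 lower, against 12 and 5 in pnet2_ab. BT2, a scaffold protein gene repressed by sugar, stood at 12.1 and 11.9 CPM in wild type against 78.9 and 68.5 CPM in the line, and rose by 2.61 ± 0.16 (adjusted p = 5.6e-11), with 60.9 and 55.1 CPM in pnet2_ab. ASN1, an asparagine synthetase gene induced by darkness, had 5.5 and 4.77 against 33.0 and 33.3 CPM, a rise of 2.69 ± 0.23 (adjusted p = 1.3e-08), with 29.6 and 18.3 CPM in pnet2_ab. Of 27 aliphatic glucosinolate genes 9 were lower and 4 higher, with GSTU20 at -0.77 ± 0.08, BCAT3 at -0.58 ± 0.08, the chain-elongation gene MAM3 at 1.49 ± 0.19 and the transporter gene GTR2 at 0.6 ± 0.08. MAM3 stood at 12.7 and 9.1 CPM in wild type, 31.0 and 30.0 CPM in the line and 15.7 and 15.0 CPM in pnet2_ab. Of 24 genes of indole glucosinolates and camalexin 7 were higher and 4 lower. The shares of higher aliphatic genes (14.8%) and lower indole genes (16.7%) were near the 14.9% and 15.6% over all tested genes. GSTF6 and MYB51 rose by 1.42 ± 0.11 and 1.38 ± 0.17, and MYB34, a regulator of the same indole branch, fell by 0.92 ± 0.13. Without the second NTL12-SRDX library 2 of the 24 were lower. In pnet2_ab the aliphatic list had 16 lower and 3 higher, and the indole list 9 higher and 6 lower. Of 19 anthocyanin genes 7 were lower and 1 higher (6 and 3 in pnet2_ab); TT19, LDOX and UGT78D2 fell by 2.22 ± 0.32, 1.7 ± 0.3 and 0.94 ± 0.16, and the higher one was MYBL2, a repressor of the pathway, at 0.66 ± 0.09.

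Of 34 auxin response genes 9 were lower, 1 was higher and 24 did not pass the test, with a median of 0.01 and a mean of -0.1. The share lower was 26.5%, against 15.6% over all tested genes, and pnet2_ab had 6 lower and 5 higher. Among the members called were IAA17 and IAA14, repressors of auxin signalling, falling by 1.4 ± 0.16 and 1.34 ± 0.22, IAA29 by 1.03 ± 0.23, and GH3.5, which conjugates auxin, rising by 0.92 ± 0.16. The number higher was 3 without the first wild-type library and 2 without the first NTL12-SRDX library. Of 29 cell wall genes 9 were lower (31.0%) and 7 higher (24.1%, or 4 genes without the second NTL12-SRDX library), against 10 and 11 in pnet2_ab, and the expansin gene EXPA10 fell by 1.06 ± 0.12, from 41.9 and 33.9 to 18.5 and 17.9 CPM. Of 27 cell division genes 7 were lower and none higher, but 3 were lower without the second wild-type library or the first NTL12-SRDX library and 2 without the second NTL12-SRDX library. In pnet2_ab 2 were lower. Of 8 lipid transfer protein genes LTP2, LTP3 and LTP4 were higher and LTP6 lower, by 0.91 ± 0.14, and in pnet2_ab 5 were higher and 1 lower.

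Of 24 autophagy genes 11 were higher and none lower, a count of 5 without the second wild-type library and 6 without the first NTL12-SRDX library, and 9 were higher in pnet2_ab. ATG8E rose by 0.82 ± 0.11, from 29.1 and 25.1 to 43.5 and 52.4 CPM, and the cargo receptor gene NBR1 by 0.42 ± 0.07. Of 22 DNA damage genes 7 were higher and 2 lower, and in pnet2_ab 7 were higher. GMI1, induced by double-strand breaks, stood at 3.2 and 4.01 CPM in wild type against 18.1 ± 1.05 CPM (mean ± SD, n = 2) in the line, with 21.99 and 20.58 CPM in pnet2_ab, a rise of 2.32 ± 0.17 against wild type (adjusted p = 1.4e-09). RAD17, a checkpoint gene, rose by 1.35 ± 0.2, and TSO2, which makes nucleotide precursors, fell by 0.51 ± 0.09. The number higher was 4 without the first NTL12-SRDX library, and the number lower 1 without the second wild-type library or either NTL12-SRDX library. Of 25 genes of the unfolded protein response 6 were lower and 4 higher, with 3 lower without either wild-type library or the first NTL12-SRDX library; the chaperone genes CNX1 and BIP1 fell by 0.5 ± 0.07 and 0.43 ± 0.07. In pnet2_ab 8 were lower and 6 higher. Heat shock genes were higher in 3 and lower in 3 of 14 cases, and clock genes higher in 5 and lower in 1 of 25, with TOC1 at 0.42 ± 0.08. Without the second wild-type library no heat shock gene and 3 clock genes were higher, without the first wild-type or second NTL12-SRDX library 1 heat shock gene was higher, and without the first NTL12-SRDX library 1 was lower. No clock gene was lower without any 1 of the 4 libraries. Nuclear envelope genes were higher in 5 and lower in 1 of 21 cases, with NEAP2 at 0.97 ± 0.21 and SINE1 at -0.54 ± 0.14, and the number higher was 1 without the second NTL12-SRDX library and 2 without either wild-type library. In pnet2_ab the heat shock list had 4 higher and 2 lower, the clock list 4 and 2, and the nuclear envelope list 3 and 1. Over all tested genes 14.9% were higher and 15.6% lower in the line. Its shares were 16.0% and 24.0% for the unfolded protein response and 21.4% and 21.4% for heat shock. For the clock they were 20.0% and 4.0%, and for the nuclear envelope 23.8% and 4.76%. None of these shares is read as a result about its list.

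**Figure D5:**
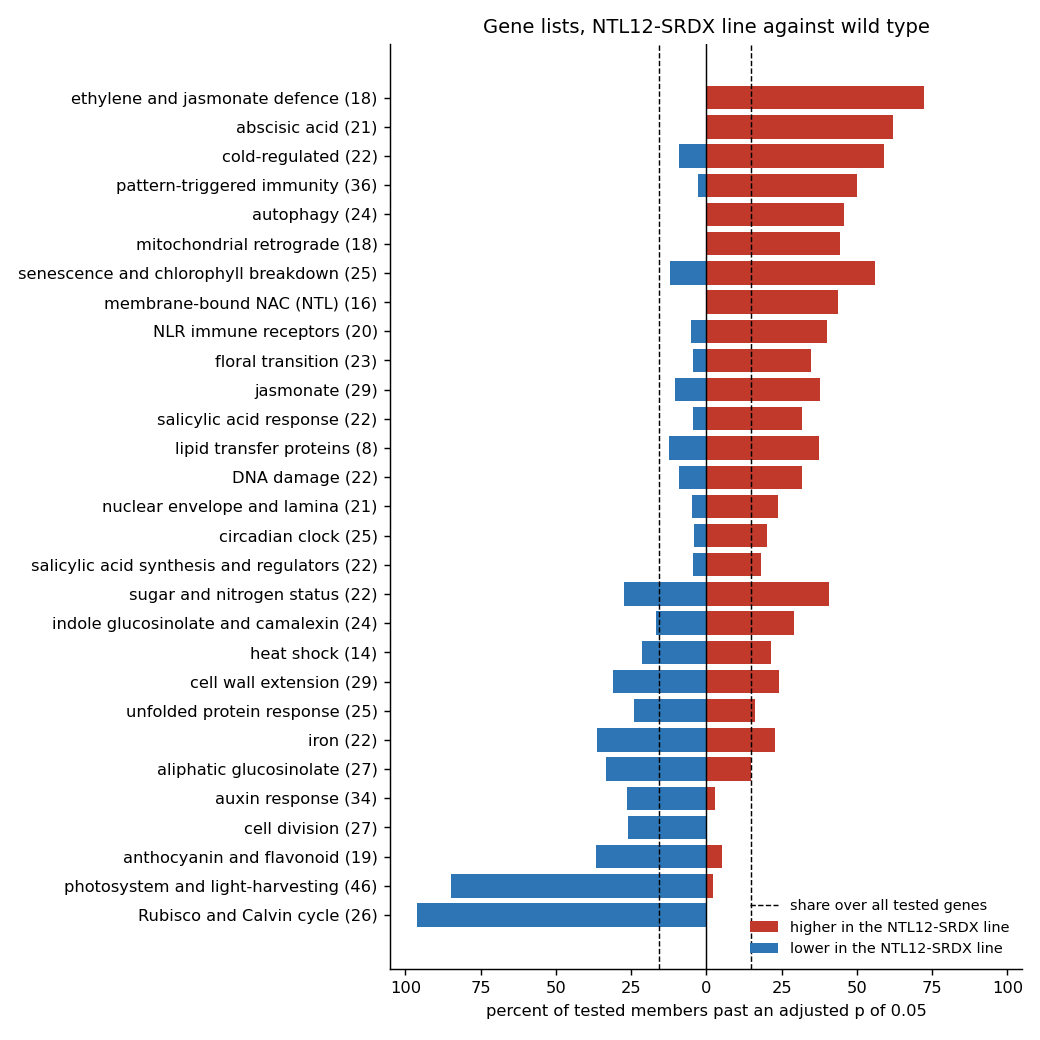
Percent of the tested members of each gene list (number tested in brackets) that were higher (right) or lower (left) in the NTL12-SRDX line than in wild type at an adjusted p under 0.05, and, as dashed lines, the shares over all tested genes, 14.9% and 15.6%. The Rubisco and Calvin cycle list and the photosystem list lie at the lower end, and the list of ethylene and jasmonate defence at the upper.

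Among cell type markers, some moved with these groups and their part was not tested. These lists are short, and over all tested genes 14.9% were higher and 15.6% lower. Of 12 guard cell markers 3 were higher and 1 lower, with a median of 0.34, and 1 was higher without the first NTL12-SRDX library. The higher ones were KAT2, a potassium channel gene, at 0.82 (adjusted p = 0.0043), TMM, of stomatal patterning, at 0.52 ± 0.12, and FAMA, which sets guard cell fate, at 0.42 (adjusted p = 0.02), and the lower one was the channel gene KAT1, which fell by 0.74 ± 0.14. KAT2 lost its call without the first NTL12-SRDX library, and FAMA without that one, the second or the first wild-type library. Of 9 trichome markers 2 were lower, none was higher and 7 did not pass, with a median of 0.15 and a mean of -0.3. Without the first wild-type or the second NTL12-SRDX library 1 was lower, and without the first NTL12-SRDX library 1 was higher. The lower ones were TRY, a repressor of trichome fate, and GL2, which acts in trichome formation and had 13.0 and 17.1 against 4.63 and 7.46 CPM (-1.32 ± 0.28, adjusted p = 0.001). TRY lost its call without the first wild-type (-1.79) or the second NTL12-SRDX library. Of 14 vasculature markers 4 were lower and 1 higher, with 2 lower without the second NTL12-SRDX library and none higher without the second wild-type or the first NTL12-SRDX library. SWEET11, a phloem sugar exporter gene, fell by 0.51 ± 0.09. The root-enriched gene PYK10 stood at 94.7 and 168 CPM in wild type against 51.8 and 57.8 CPM in the line, a fall of 1.26 ± 0.23. Of 7 tested root markers 1 was higher (none without the first wild-type library) and 3 were lower (1 without the second wild-type or either NTL12-SRDX library). Of 10 tested floral organ markers 2 were higher and 1 lower, with 1 higher without the first library of either group and 2 lower without the second wild-type library. SEP3, a floral organ identity gene, had 1.15 and 0.713 against 6.18 and 7.05 CPM and rose by 2.83 ± 0.32 (adjusted p = 4.8e-07), while SEP4 fell by 1.43 ± 0.2, and 13 of the 14 seed markers did not pass the filter on low counts.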

How the data were processed

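Leaf mRNA was sequenced in 10 libraries of 5 genotypes. The authors deposited raw counts per gene and FPKM per gene; the counts were tested and the deposited FPKM were not used for any result. Per the submitters' processing notes, the tools were HISAT2 2.0.4 and HTSeq 0.6.1p1 and the build TAIR10. Libraries were strand-specific per the labels' protocols. Whether HTSeq used the strand, and how it treated reads that fit several copies, is not given in the sources used here.

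The fit used edgeR 4.0.16 under R 4.3.3. filterByExpr by group left 20334 of 33602 genes, TMM scaling gave factors of 0.884 and 0.907 in wild type and 1.017 and 1.037 in the NTL12-SRDX line, and all 10 libraries were fitted with 1 coefficient per group (biological coefficient of variation 0.108, prior df 16.1). Quasi-likelihood F-tests were adjusted over all tested genes by the Benjamini-Hochberg method at 0.05. A standard error is the absolute log2 fold change divided by the square root of F. CPM uses TMM factors. For a gene at 0, the limit at 95% confidence is 3 counts (0.114 to 0.15 CPM in the 4 libraries), which covers counting error only. Replicates differed by more than sampling noise (chi-square per degree of freedom 6.66 and 6.74). The script was tested on simulated data.

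Named genes were the PNET2 and NTL families; the 10 largest rises and falls among genes that carry a symbol, reach 5 CPM on average and do not overlap between groups; 6 each that stood at the level of pnet2_ab or beyond both genotypes; up to 4 per list by adjusted p; and 10 markers. The text prints part of them. The members and the 38 lists were chosen with earlier results of these data known; 850 of 903 list entries matched a gene. Lists are described by counts and medians, not tested. Promoter windows were 250 bases before RefSeq starts (TAIR10.1), which differ from the starts in the authors' table for many genes: 2001 of 20221 had both ends equal. Alternatives were DESeq2 1.42.0 (size factors, Wald test), no filter, the 4 libraries alone, each library left out, and a replicate block.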

Additional observations from a re-analysis of the deposited data

How the results depend on the processing

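The counts of 3024 higher and 3181 lower genes, and of 998 and 302 by at least 2-fold, stayed within 1.5 times under relative log expression size factors, DESeq2's Wald test, no filter and a fit of only the 4 libraries, where they ranged from 2835 to 3160, 3189 to 3326, 919 to 1026 and 310 to 343. Leaving out 1 library gave 1967 to 2299 higher, 2382 to 2694 lower, 823 to 864 higher by 2-fold and 272 to 313 lower by 2-fold, the lowest of the first without the second wild-type library. Same-numbered libraries did not deviate together (correlations of -0.04 to 0.03), so the numbers do not pair the samples; a replicate block gave 2908 higher, 3080 lower, 964 and 291. Of 194 genes followed, leaving out 1 library ended 14 to 16 calls and reversed none; DESeq2, no filter and the block ended 2 each and the 4-library fit 1. With 2 libraries a group, a library left out leaves 1, which is assumed to vary like the other groups.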

Other observations

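Some genes that rose lay next to each other. Of the 998 genes higher by at least 2-fold 175 (17.5%) had a tested neighbour that also rose by at least 2-fold. Of the 302 genes that fell by that much 16 (5.3%) had a neighbour that fell. Over all tested genes 4.91% rose and 1.49% fell by at least 2-fold, and most genes have a neighbour on each side. The share of neighbours expected from random placement was not worked out. Runs of 3 or more included CRK5, CRK6, CRK7 and CRK8 and, close by on chromosome 4, CRK11, CRK12 and CRK13, genes for cysteine-rich receptor kinases, with log2 changes of 1.58 to 2.89 and 1.22 to 2.36. Other runs were IGMT1, IGMT3 and IGMT2, which methylate indole glucosinolates, with changes of 1.37 to 2.03, and the cytochrome genes CYP71B22, CYP71B23 and CYP71B3, with changes of 1.01 to 1.55. Such tandem copies are alike in sequence, reads can be shared between them, and neighbours in a run were not tested as a group.

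Transposable element genes rose by at least 2-fold in 20 of 188 tested cases (10.6%) and fell in none. Among protein-coding genes 4.83% were higher and 1.49% lower by that much. The filter on low counts kept a gene whatever the genotype of the libraries that held its counts. An element silent in wild type could thus be tested only through libraries where it was high, which favours rises. These shares are not read as a result about such elements. Across chromosomes 1 to 5 the share of genes higher by at least 2-fold ranged from 4.46% to 5.68%, and that of genes lower from 1.27% to 1.81%.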
